A study of Mus musculus with 30 samples.

Results

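Transcripts of 9 genes of the transforming growth factor beta (TGF-beta) pathway were followed in hypothalamic cells exposed to cannabidiol (CBD), over dose and after 6 h and 24 h. The genes are the ligands *Tgfb1*, *Tgfb2* and *Tgfb3*, the receptors *Tgfbr1* and *Tgfbr2*, the signal transducers *Smad2* and *Smad3*, the inhibitory *Smad7* and the transcriptional repressor *Skil*. They were chosen by symbol, as the rows of the count tables whose Ensembl identifier carries 1 of these names, and they are 9 of 56941 genes counted. All 9 passed the filter on low counts in the fit of each time and in the fit of both times.

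TGF-beta ligands are secreted in a latent complex and become active once released from it. The active ligand binds the type II receptor, which phosphorylates the type I receptor, and the type I receptor phosphorylates Smad2 and Smad3. These enter the nucleus with Smad4 and change the transcription of target genes. Smad7 and the product of *Skil* limit the signal, and both genes are themselves induced by it, which makes their transcripts a common readout of the pathway. In the hypothalamus, TGF-beta released by glial cells is known to act on neurons that produce gonadotropin-releasing hormone.

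The cells were mHypoA-2/12, an immortalized line derived from the hypothalamus of adult mice, which is 1 line and holds no surrounding tissue. Cells received 0.1% DMSO as vehicle or CBD at 0.325, 0.75, 1.5 or 3 µM, in the same concentration of DMSO, for 6 h or 24 h, with 3 libraries in each of the 10 groups. The libraries (QuantSeq 3′ mRNA-Seq) read each transcript at its 3′ terminus, and the medium during exposure was DMEM with GlutaMAX, for which no serum is named. No source used here says whether the 3 libraries of a group came from separate cultures, so p-values measure the spread between these libraries, which may in part be technical.

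Reads on genes ranged from 1839621 to 4420675 per library. Library A3, 1 of the 3 vehicle libraries of 6 h, stood apart from the other two: it held 3574833 reads on genes against 1839621 in A1 and 1919498 in A2, and 17.9% of its uniquely mapped reads lay outside genes against 21.4% and 20.8%. At 24 h, the share of reads outside genes was 20.9% to 22.2% in vehicle and 20.8% to 21.7% at 3 µM, and 18.7% to 20.4% at the 3 lower doses. The labelled origin was set against marker genes. All 8 mesenchymal markers exceeded 1 CPM on average (the reads of a gene scaled to a fixed library total), with a summed level of 7717 to 9982 CPM per library and *Col1a1* at 2063 CPM. Of 12 neuronal markers 8 exceeded 1 CPM and their sum was 154 to 228 CPM, while *Dcx* had 0 reads and *Rbfox3* and *Snap25* were at 0.589 and 0.0406 CPM. None of 8 hypothalamic peptide genes exceeded 1 CPM, with 3 reads of *Pomc*, 1 read of *Npy* and 0 reads of *Cartpt* and *Trh* over all 30 libraries. Summed levels per library were 16.8 to 50.7 CPM for 6 astroglial markers, with *Aqp4* at 0 reads, 14.6 to 54.5 CPM for 5 microglial markers, 0 to 4.14 CPM for 6 oligodendroglial markers, with *Olig1*, *Olig2* and *Sox10* at 0 reads, and 0 to 3.80 CPM for 4 endothelial markers.

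Levels are given as CPM after TMM normalization over all libraries. The kit makes about 1 fragment per transcript, so no length enters these values, and levels were compared within a gene and not between genes. In RNA from whole cultures, fewer cells that use a gene and less of its RNA per cell cannot be told apart. Fold changes and their standard errors come from edgeR, and the false discovery rate (FDR) is the p-value of the quasi-likelihood F-test adjusted by Benjamini-Hochberg across every gene in the fit, with 0.1 as the threshold.

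The sequences upstream of the start are shown for 3 genes whose transcripts changed between 6 h and 24 h in CBD-treated cells, *Tgfb2* and *Tgfbr2*, which were higher at 24 h, and *Tgfb1*, which was lower. Of all genes, 53.6% were called in that contrast. The sequences shown are for these 3 genes. They are the 250 bases before the RefSeq start, written 5′ to 3′ on the strand of the gene, with coordinates of GRCm38.p6. Capitals mark matches to GTCT or its reverse complement AGAC, the 4 bases that Smad proteins contact, and to the E-box CACGTG. The RefSeq table held 5 of the 9 genes, and *Smad3* and *Tgfbr1*, which also changed with time in CBD-treated cells, are given by their motif counts alone.
*Tgfb2*, chr1:186705990-186706239, minus strand: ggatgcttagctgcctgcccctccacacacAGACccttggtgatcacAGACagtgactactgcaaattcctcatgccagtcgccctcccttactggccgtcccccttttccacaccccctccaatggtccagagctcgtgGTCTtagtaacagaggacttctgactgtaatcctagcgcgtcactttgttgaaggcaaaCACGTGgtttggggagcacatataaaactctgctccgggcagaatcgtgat
*Tgfbr2*, chr9:116175364-116175613, minus strand: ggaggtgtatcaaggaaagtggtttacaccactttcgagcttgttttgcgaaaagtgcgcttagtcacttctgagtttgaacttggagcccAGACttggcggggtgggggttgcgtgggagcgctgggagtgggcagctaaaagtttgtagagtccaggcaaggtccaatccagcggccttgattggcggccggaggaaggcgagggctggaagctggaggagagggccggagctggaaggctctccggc
*Tgfb1*, chr7:25686752-25687001, plus strand: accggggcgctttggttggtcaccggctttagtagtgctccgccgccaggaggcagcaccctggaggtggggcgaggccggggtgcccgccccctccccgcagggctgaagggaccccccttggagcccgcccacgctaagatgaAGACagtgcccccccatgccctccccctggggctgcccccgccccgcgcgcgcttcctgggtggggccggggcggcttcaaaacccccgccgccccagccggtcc
The *Tgfb2* window held 3 matches to GTCT or AGAC and 1 E-box, and the *Tgfbr2* and *Tgfb1* windows held 1 match to GTCT or AGAC each. The *Smad3* window also held 1 match, and the windows of the 2 starts of *Tgfbr1* held 0 and 2, with no E-box in these 3 windows. The 4-base motif was present in 82.9% of 32851 promoter windows of the same length and the E-box in 6.02%, searched on both strands. The AP-1 site TGANTCA, present in 6.75% of the windows, and the cyclic AMP response element TGACGTCA, present in 1.55%, had no match in any of the 6 windows. The *Tgfb2* window also overlaps an exon of *Gm29491*, an antisense gene with 0 reads. A match describes the letters of the window and is not evidence of a bound site.

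Positions are those of GRCm38, from the GENCODE annotation, and every gene is annotated as protein coding. *Tgfb1* (ENSMUSG00000002603) lies on chromosome 7 from 25687002 to 25705077 on the plus strand. *Tgfb2* (ENSMUSG00000039239) lies on chromosome 1 from 186622792 to 186705989 and *Tgfb3* (ENSMUSG00000021253) on chromosome 12 from 86056745 to 86079041, both on the minus strand. The receptor genes are *Tgfbr1* (ENSMUSG00000007613), on chromosome 4 from 47353222 to 47414931 on the plus strand, and *Tgfbr2* (ENSMUSG00000032440), on chromosome 9 from 116084293 to 116175360 on the minus strand. *Smad3* (ENSMUSG00000032402) lies on chromosome 9 from 63646767 to 63757994 on the minus strand. *Smad2* (ENSMUSG00000024563) and *Smad7* (ENSMUSG00000025880) lie on the plus strand of chromosome 18, from 76241580 to 76310963 and from 75367529 to 75395935. *Skil* (ENSMUSG00000027660) lies on chromosome 3 from 31095058 to 31122577 on the plus strand. The 3′ end of *Tgfb3* overlaps *Ttll5*, a tubulin ligase gene of the opposite strand that had 2724 reads over the 30 libraries. The strand setting of the counting is not given in the sources used here, so reads of the pair could be confused in either direction.

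Of the 9 genes, 0 passed the threshold against vehicle at any dose of CBD or over the 4 doses together after 6 h, by edgeR. The gene nearest to it was *Smad3*, with a point estimate below vehicle at 0.325 µM. Among all 12012 genes tested, the share called was 0.2% at 0.325 µM, 0.0749% at 0.75 µM, 0.0999% at 1.5 µM, 0.05% at 3 µM and 0.749% over the 4 doses. At an unadjusted p below 0.05 there was 1 gene of the 9 at each dose and 3 over the 4 doses, where 8.8%, 7.79%, 7.91% and 7.26% of all genes in the order of rising dose and 10.3% over the doses did so. DESeq2 called 1 of the 9 at 0.325 µM and 0 in the other comparisons of 6 h. The shares of all genes given here and below are those of edgeR, and those of DESeq2 are not given. The median log2 fold change over the 4 doses was −0.20 for the 9 genes and −0.02 for all genes.

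**Figure D1:**
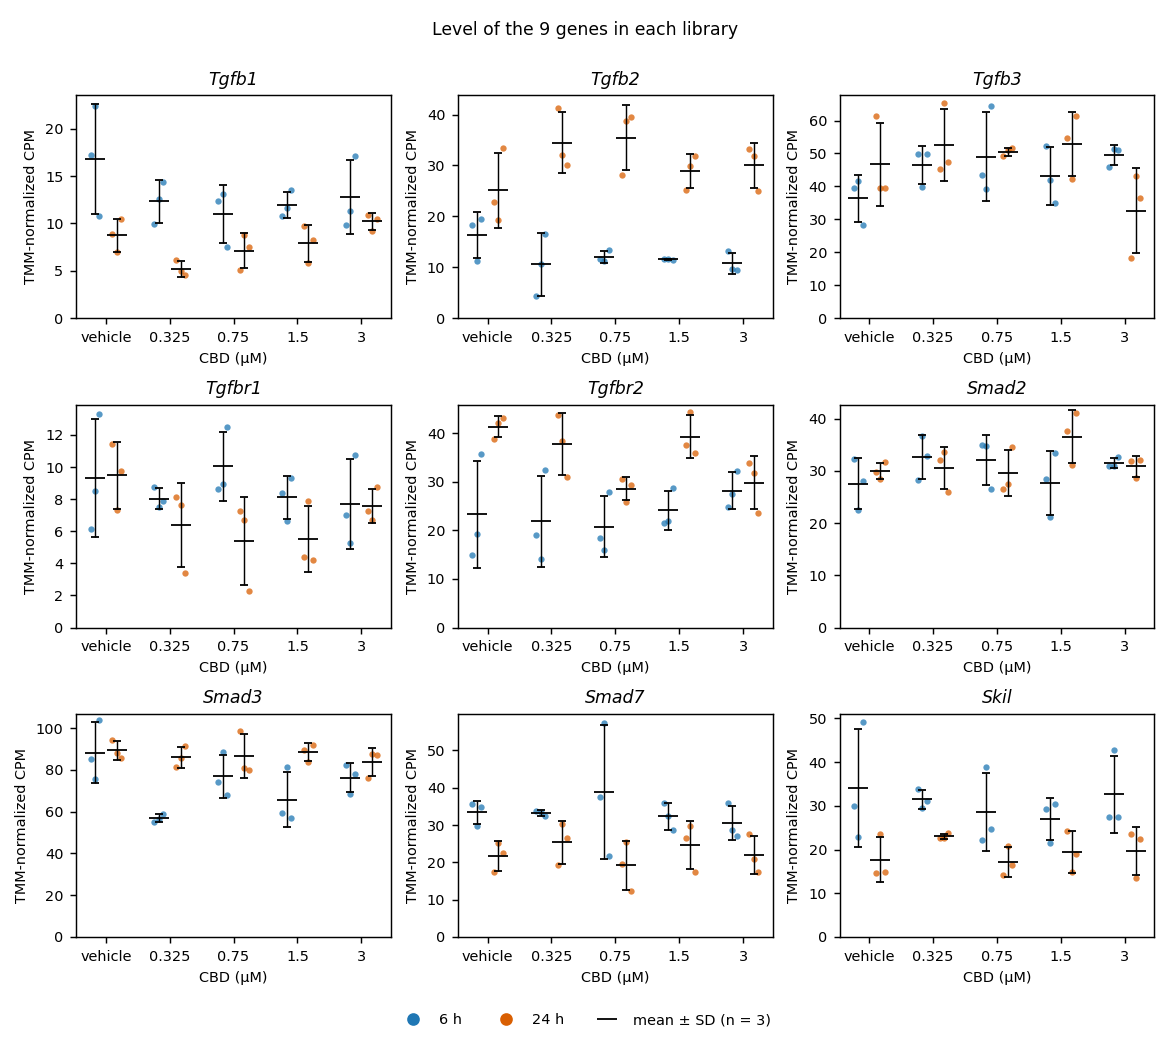
Level of each gene in every library, in TMM-normalized CPM on a linear axis that starts at 0, by CBD dose, with 6 h in blue and 24 h in orange. Points are libraries and bars are the mean ± SD of 3. *Tgfb2* lies higher at 24 h than at 6 h at each CBD dose, while its groups of 1 time overlap.

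*Tgfb1*, the ligand most widely expressed in the body, was at 17.2, 22.4 and 10.8 CPM in the vehicle libraries A1, A2 and A3 of 6 h (mean 16.8 ± 5.80, SD, n = 3). The 12 CBD libraries of 6 h lay between 7.50 and 17.2 CPM with a median of 12.0. The log2 fold change over the 4 doses was −0.46 (standard error 0.25, FDR = 0.559). The group means were 12.3 ± 2.26, 10.99 ± 3.04, 12.0 ± 1.39 and 12.8 ± 3.89 CPM from 0.325 to 3 µM, and the ranges of the doses overlapped.

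*Tgfb2*, the ligand whose binding depends most on the co-receptor betaglycan, was at 18.4, 11.2 and 19.4 CPM in the vehicle libraries of 6 h. The CBD libraries lay between 4.37 and 16.6 CPM (median 11.5, n = 12), and A2, the lowest vehicle library, lay among them. Its log2 fold change over the 4 doses was −0.56 (standard error 0.27, FDR = 0.477), with single doses between −0.66 and −0.45. *Tgfb3*, the third ligand, was at 39.5, 41.6 and 28.3 CPM in vehicle and at 35.0 to 64.4 CPM in the CBD libraries (median 47.8, n = 12), with overlapping ranges. Its log2 fold change was 0.38 (standard error 0.18, FDR = 0.445), and *Ttll5* on the opposite strand was at 0.32 (standard error 0.17, FDR = 0.527) in the same comparison. All 3 ligands therefore stayed short of the threshold at 6 h, with point estimates below vehicle for *Tgfb1* and *Tgfb2* and above it for *Tgfb3*.

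The type I receptor *Tgfbr1*, the kinase that phosphorylates Smad2 and Smad3, had the fewest reads of the 9 genes, with 6 to 49 per library. It was at 6.12, 8.54 and 13.3 CPM in vehicle and at 5.24 to 12.5 CPM in the CBD libraries of 6 h, and its log2 fold change over the doses was −0.20 (standard error 0.29, FDR = 0.874). The type II receptor *Tgfbr2*, which binds the ligand first, was at 15.01, 19.2 and 35.8 CPM in vehicle and at 14.2 to 32.3 CPM in the CBD libraries. Its log2 fold change was −0.04 (standard error 0.24, FDR = 0.977). For both receptors the highest vehicle library was A3, and without it the estimates were 0.20 and 0.46.

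*Smad3* was at 85.1, 75.8 and 104 CPM in the vehicle libraries of 6 h and at 55.3, 56.4 and 59.0 CPM at 0.325 µM. The groups did not overlap, as was the case for 10.6% of all genes in this comparison. The log2 fold change was −0.65 (standard error 0.17), which is 0.637 times the vehicle level, with FDR = 0.171 and a rank of 61 by p-value among 12012 genes. The call depended on the model, since DESeq2 gave FDR = 0.0993, a fit with the percentage of reads beyond annotated genes as an added term gave 0.0304, and a fit of all 30 libraries gave 0.0478. The other alternative fits did not call it, among them all 15 that left out a library of 6 h (FDR of 0.159 to 0.356). At the other doses *Smad3* was at 76.9 ± 10.5 CPM (0.75 µM), 65.8 ± 13.4 CPM (1.5 µM) and 76.3 ± 7.10 CPM (3 µM), each as mean ± SD of 3 libraries. The estimate at 1.5 µM was −0.44 (standard error 0.17, FDR = 0.522) and that at 3 µM −0.22 (standard error 0.17, FDR = 0.845). The level thus did not follow the order of the doses, and the slope over the doses was 0.11 per doubling (standard error 0.05, FDR = 0.996). Over the 4 doses the log2 fold change was −0.38 (standard error 0.13, FDR = 0.263), and the 12 CBD libraries lay between 55.3 and 88.5 CPM.

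*Smad2*, the partner of *Smad3* as a receptor substrate, was at 32.3, 22.4 and 28.04 CPM in vehicle and at 21.1 to 36.7 CPM in the CBD libraries of 6 h (log2 fold change 0.16, standard error 0.17, FDR = 0.826). *Smad7*, which recruits ubiquitin ligases to the receptor, was at 35.6, 29.9 and 34.7 CPM in vehicle and at 21.6 to 57.5 CPM with CBD (log2 fold change 0.00, standard error 0.20, FDR = 0.998). Both ends of the *Smad7* range came from the same dose, 0.75 µM, where A11 was at 57.5 and A12 at 21.6 CPM. *Skil*, which encodes the Smad corepressor SnoN, was at 30.03, 22.9 and 49.1 CPM in vehicle and at 21.6 to 42.8 CPM with CBD (log2 fold change −0.23, standard error 0.21, FDR = 0.779). The highest vehicle value of *Skil* was again that of A3, and the estimate without A3 was 0.17. Neither of these genes, which the pathway itself induces, separated the CBD libraries from vehicle.

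**Figure D2:**
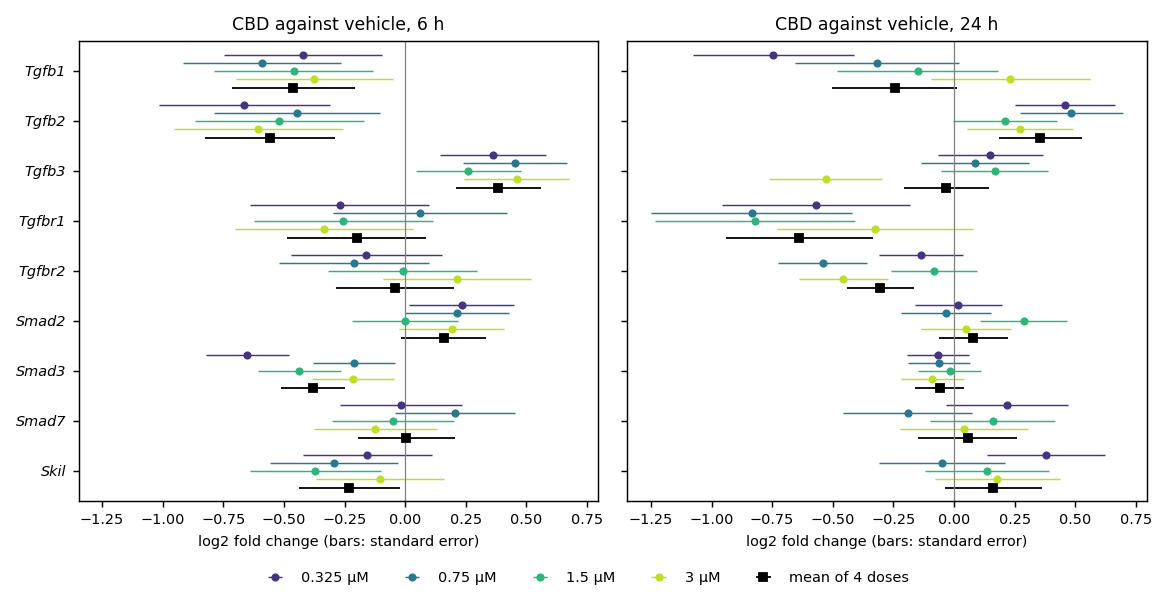
Log2 fold change of each gene from vehicle at every CBD dose (circles) and over the 4 doses (squares), at 6 h on the left and 24 h on the right, with standard errors as bars. No estimate passed an FDR of 0.1; *Smad3* at 0.325 µM and 6 h lies at −0.65.

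After 24 h, 0 of the 9 genes passed the threshold against vehicle at any dose or over the 4 doses by edgeR, and 0 by DESeq2. The share called among all 12118 genes was 0.066% at 0.325 µM, 0.0825% at 0.75 µM, 0.0413% at 1.5 µM, 0.00825% at 3 µM and 0.107% over the doses. The genes with an unadjusted p below 0.05 numbered 2, 2, 0 and 2 in the order of rising dose and 3 over the doses, where 8.33%, 7.63%, 7.34% and 9.16% of all genes and 6.73% over the doses did so. The 9 genes had a median log2 fold change of −0.03 over the 4 doses, and all genes one of −0.01.

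Among the ligands at 24 h, *Tgfb2* was at 22.8, 19.2 and 33.3 CPM in vehicle and at 24.99 to 41.3 CPM in the 12 CBD libraries (median 31.8). The point estimate lay above vehicle, at 0.36 (standard error 0.17, FDR = 0.738), while it lay below vehicle at 6 h. The difference between the times was tested directly and was 0.92 (standard error 0.31, FDR = 0.378), so the opposite signs did not pass the threshold. Over the 9 genes, 0 passed this test by edgeR or by DESeq2, against 0.235% of 12790 genes, and 1 of them, *Tgfb2*, had an unadjusted p below 0.05 (6.52% of all genes). *Tgfb1* was at 8.85, 6.96 and 10.4 CPM in vehicle and between 4.51 and 10.9 CPM with CBD (log2 fold change −0.25, standard error 0.26, FDR = 0.927). *Tgfb3* was at 61.3, 39.5 and 39.4 CPM in vehicle and between 18.2 and 65.3 CPM with CBD (log2 fold change −0.03, standard error 0.17, FDR = 0.995).

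For *Tgfbr2* at 24 h, the vehicle libraries were at 38.9, 42.1 and 43.1 CPM and the 12 CBD libraries at 23.7 to 44.3 CPM (median 32.9). Its log2 fold change over the doses was −0.30 (standard error 0.14, FDR = 0.727), and those at 0.75 µM and 3 µM were −0.54 (standard error 0.18, FDR = 0.411) and −0.46 (standard error 0.18, FDR = 0.511). At 0.325 µM and 1.5 µM it was −0.14 and −0.08, so the estimates did not fall in the order of dose. *Tgfbr1* was at 11.4, 7.29 and 9.76 CPM in vehicle and at 2.26 to 8.77 CPM in the 12 CBD libraries, with overlapping ranges. Its log2 fold change was −0.64 (standard error 0.30, FDR = 0.733). Both receptors thus had lower point estimates than vehicle without passing the threshold.

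*Smad3*, the gene nearest to the threshold at 6 h, was at 94.3, 87.9 and 85.8 CPM in vehicle at 24 h and at 76.0 to 98.6 CPM with CBD (log2 fold change −0.06, standard error 0.10, FDR = 0.966). At 0.325 µM its estimate was −0.07 (standard error 0.13, FDR = 0.93). *Smad2* lay between 25.9 and 41.0 CPM with CBD and was at 29.99 ± 1.57 CPM (SD, n = 3) among vehicle libraries (log2 fold change 0.08, standard error 0.14, FDR = 0.967). The inhibitory *Smad7* had a vehicle mean of 21.7 ± 3.93 CPM (SD, n = 3) and was at 12.4 to 30.3 CPM with CBD (log2 fold change 0.06, standard error 0.20, FDR = 0.988). The repressor *Skil* had a vehicle mean of 17.7 ± 5.08 CPM (SD, n = 3) and was at 13.4 to 24.3 CPM with CBD (log2 fold change 0.16, standard error 0.20, FDR = 0.942). For the Smads and *Skil*, vehicle and CBD ranges overlapped throughout at 24 h.

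The doses were then compared with each other, leaving vehicle aside. At 6 h, 0 of the 9 genes differed among the doses by edgeR or DESeq2, 0 genes of 12012 did (0%), and 0 of the 9 had an unadjusted p below 0.05, against 3.76% of all genes. At 24 h, 0 of the 9 genes passed a test of any difference among the doses, where 1.93% of 12118 genes did, and 2 had an unadjusted p below 0.05 (14.5% of all genes). DESeq2 also called 0 here and in the slope. In the slope over the logarithm of dose at 24 h, 0 of the 9 passed against 3.13% of all genes, with 2 at an unadjusted p below 0.05 (16.5% of all genes). These were *Tgfb1*, whose group means were 5.21 ± 0.867, 7.13 ± 1.87, 7.91 ± 1.98 and 10.2 ± 0.880 CPM (SD, n = 3) from 0.325 to 3 µM, and *Tgfb3*. The slope of *Tgfb1* was 0.29 per doubling of dose (standard error 0.10, FDR = 0.14) and that of *Tgfb3* was −0.18 (standard error 0.07, FDR = 0.177). Although the means of *Tgfb1* rise in the order of dose, the vehicle mean of 8.75 ± 1.74 CPM (SD, n = 3) lies within their range.

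The dose of 3 µM at 24 h was set against the 3 lower doses, the contrast in which 10.5% of all genes were called, 6.36% higher and 4.16% lower at 3 µM. Of the 9 genes 1 was called, *Tgfb3*, which was lower. It was at 18.2, 43.2 and 36.4 CPM in libraries A16, A17 and A18 of 3 µM and at 42.2 to 65.3 CPM in the 9 libraries of lower doses (median 50.9). A17 lay within the range of the lower doses and A16 and A18 lay below it. The log2 fold change was −0.66 (standard error 0.20, FDR = 0.0457), or 0.631 times the level at the lower doses, and DESeq2 also called it. The call was lost without A16 (log2 fold change −0.38, FDR = 0.413), without A18 (−0.76, FDR = 0.1) and when the percentage of reads beyond annotated genes was added as a term (−0.87, FDR = 0.357). That share was 21.4% ± 0.487 at 3 µM and 19.4% to 19.7% on average at the lower doses. Its ranges did not overlap, at 20.8% to 21.7% and 18.7% to 20.4%, so this fit cannot tell dose and share apart. The part of the share in the difference was not tested otherwise. *Ttll5*, which overlaps the 3′ end of *Tgfb3*, was at 23.2 to 33.2 CPM at 3 µM (log2 fold change −0.19, standard error 0.15, FDR = 0.496). *Tgfb1* was at 9.23 to 10.9 CPM at 3 µM and 4.51 to 9.72 CPM at the lower doses (log2 fold change 0.64, standard error 0.27, FDR = 0.17). The remaining 7 genes had estimates between −0.20 and 0.42. The contrast at 6 h called 0 of the 9 genes by edgeR and DESeq2, with 0 at an unadjusted p below 0.05 (5.19% of all genes) and 0% of all genes called.

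**Figure D3:**
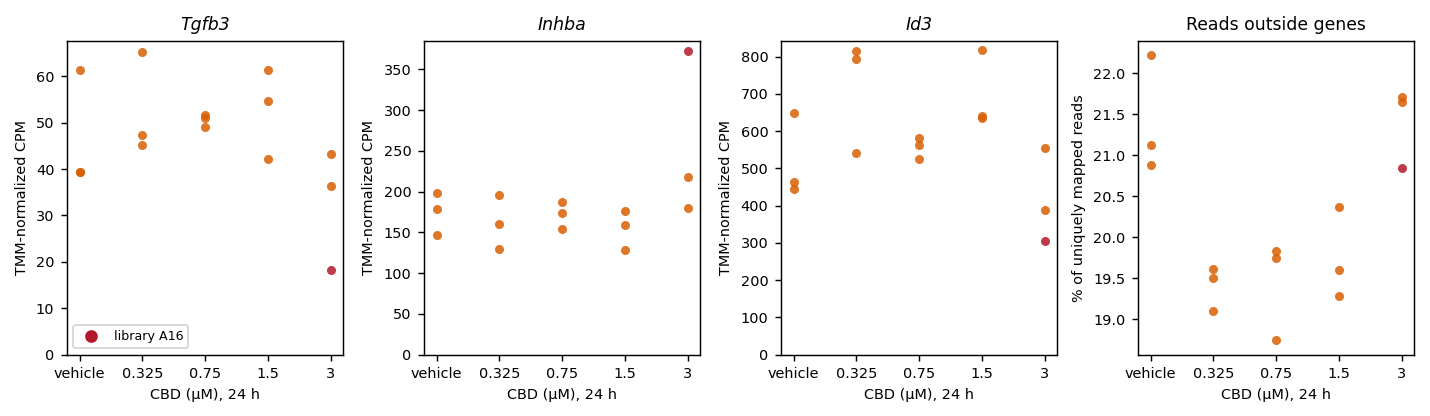
Libraries of 24 h by CBD dose for *Tgfb3*, *Inhba* and *Id3* (TMM-normalized CPM, axes from 0) and for the share of uniquely mapped reads outside genes (axis not from 0), with library A16 in red. A16 holds the lowest *Tgfb3* value, 18.2 CPM, and the share outside genes at 3 µM lies with vehicle, above the lower doses.

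The transcripts were then compared between the times. In vehicle, 4 of the 9 genes differed between 24 h and 6 h, where 26.7% of 12790 genes did (12.5% higher and 14.2% lower at 24 h). *Skil*, *Tgfb1* and *Smad7* were lower and *Tgfbr2* was higher, by edgeR and by DESeq2. No preparation batch is labelled, so time and anything else in which the 6 h and 24 h libraries differed as sets cannot be told apart.

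*Skil* fell from 30.03, 22.9 and 49.1 CPM at 6 h to 14.7, 23.5 and 14.8 CPM at 24 h in vehicle, with overlapping ranges (log2 fold change −0.99, standard error 0.27, FDR = 0.00711). Without A3 the estimate was −0.58 with FDR = 0.185. *Tgfb1* fell from 10.8 to 22.4 CPM at 6 h to 6.96 to 10.4 CPM at 24 h, without overlap (log2 fold change −0.91, standard error 0.31, FDR = 0.034), and the call was lost without A2 (FDR = 0.215) or A29 (FDR = 0.12). *Smad7* fell from 29.9 to 35.6 CPM to 17.5 to 25.2 CPM, without overlap (log2 fold change −0.63, standard error 0.27, FDR = 0.0888), and stayed past the threshold when 12 of the 30 libraries were left out one at a time and not for the other 18. *Tgfbr2* rose from 15.01 to 35.8 CPM to 38.9 to 43.1 CPM, without overlap (log2 fold change 0.76, standard error 0.25, FDR = 0.0278). Its call was lost without A1 (FDR = 0.144) or A2 (FDR = 0.116). The ranges of 3 against 3 libraries were separate for 31.8% of all genes, so separation for these 3 of the 9 genes was close to that background.

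In the CBD-treated cells, with 12 libraries at each time, 7 of the 9 genes differed between 24 h and 6 h, where 53.6% of all genes did (26% higher and 27.6% lower). DESeq2 called the same 7 genes. *Tgfb2*, *Tgfbr2* and *Smad3* were higher at 24 h, and *Tgfb1*, *Skil*, *Smad7* and *Tgfbr1* were lower. The 4 genes called in vehicle were among them with the same directions, and 0 of the 9 passed the test of the difference between CBD and vehicle in the change with time, given above.

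The change of *Tgfb2* was the largest of the 9 in this contrast. The 12 CBD libraries lay between 4.37 and 16.6 CPM at 6 h and between 24.99 and 41.3 CPM at 24 h. The log2 fold change was 1.51 (standard error 0.14, FDR = 4.81e-11), or 2.85 times the level at 6 h. With both treatments, the 15 libraries of 6 h lay between 4.37 and 19.4 CPM and the 15 libraries of 24 h between 19.2 and 41.3 CPM. The overlap came from the vehicle library A29 of 24 h at 19.2 CPM, below A3 of 6 h at 19.4 CPM. Complete separation of the 15 and 15 libraries was found for 2.25% of all genes and did not hold for *Tgfb2*. In vehicle alone the estimate was 0.59 (standard error 0.27, FDR = 0.122).

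*Tgfbr2* was higher at 24 h in CBD-treated cells by 0.51 on the log2 scale (standard error 0.13, FDR = 0.00123), from a median of 23.4 CPM to 32.9 CPM. *Smad3* was higher by 0.33 (standard error 0.07, FDR = 0.000324), from 68.3 to 86.4 CPM. In vehicle *Smad3* was at 88.3 ± 14.5 CPM at 6 h and 89.3 ± 4.44 CPM at 24 h (SD, n = 3), with an estimate of 0.01 (standard error 0.14). The difference between these changes of *Smad3* was 0.32 (standard error 0.16, FDR = 0.761).

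The genes that were lower at 24 h in CBD-treated cells were *Tgfb1* (log2 fold change −0.69, standard error 0.16, FDR = 0.000647), *Skil* (−0.59, standard error 0.13, FDR = 0.000399), *Smad7* (−0.58, standard error 0.13, FDR = 0.000519) and *Tgfbr1* (−0.45, standard error 0.20, FDR = 0.0602). Median levels went from 12.0 to 7.87 CPM for *Tgfb1*, from 29.4 to 21.6 CPM for *Skil* and from 32.9 to 23.2 CPM for *Smad7*. Over both treatments, the ranges of 6 h and 24 h overlapped for *Skil*, *Smad7* and *Tgfb1*. *Tgfbr1* was the least stable of these calls and was lost in 8 of 30 fits that left out a library, with FDR up to 0.147. *Smad2* and *Tgfb3* had estimates of 0.04 (standard error 0.10, FDR = 0.736) and −0.02 (standard error 0.12, FDR = 0.893).

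**Figure D4:**
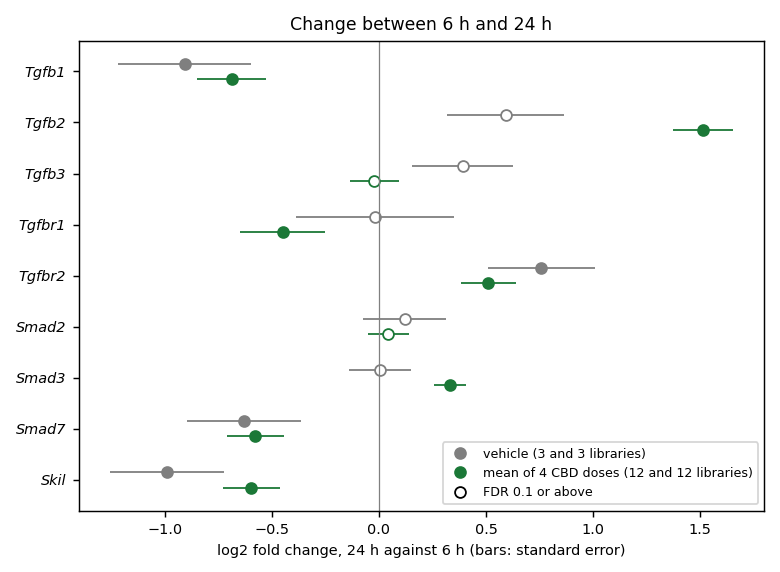
Log2 fold change of each gene from 6 h to 24 h in vehicle (grey) and over the 4 CBD doses (green), with standard errors as bars and open circles for an FDR of 0.1 or above. *Tgfb2* with CBD lies at 1.51, and *Tgfb1*, *Smad7* and *Skil* lie below 0 in both treatments.

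When the 10 groups were ordered by their mean, neighbours in the order overlapped in range for all 9 genes, so no single step from a group to the next separated a gene. For *Tgfb2* the 5 group means of 6 h ran from 10.5 ± 6.12 CPM at 0.325 µM to 16.3 ± 4.47 CPM in vehicle, and those of 24 h from 25.1 ± 7.32 CPM in vehicle to 35.5 ± 6.44 CPM at 0.75 µM (SD, n = 3). For *Tgfbr2* they ran from 20.8 ± 6.23 CPM at 0.75 µM to 28.2 ± 3.76 CPM at 3 µM at 6 h, and from 28.6 ± 2.43 CPM at 0.75 µM to 41.4 ± 2.19 CPM in vehicle at 24 h. *Smad2* group means ran from 27.6 ± 4.94 CPM in vehicle at 6 h to 36.5 ± 5.08 CPM at 1.5 µM and 24 h. Precision differed with the number of reads. *Smad3* had 135 to 405 reads per library and a median coefficient of variation within groups of 8.61%, and *Tgfbr1* had 6 to 49 reads and 29.2%, where counting alone gives 7.02% and 22.4%. *Tgfb1* had 14 to 42 reads per library and a median coefficient of variation of 22.5%, where counting alone gives 19.1%. Small differences between doses could thus be missed for *Tgfbr1* and *Tgfb1*, and the size that could be detected was not estimated.

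The rest of the pathway was read from a list of 87 other genes linked to signalling by the TGF-beta superfamily. They were grouped by role, from ligands and receptors to known transcriptional targets, which are not members of the superfamily. The list was chosen with earlier results of these data known, so a share called above that of all genes cannot be read as an excess. At 6 h, 5 of the 76 genes tested passed over the 4 CBD doses against vehicle, 4 lower and 1 higher, where 0.749% of all genes did (0.508% lower and 0.241% higher). The median log2 fold change of the list was 0.01 and that of all genes −0.02. Of other ligands 1 of 7 was called and of known transcriptional targets 4 of 25, while 0 of 14 genes of latency and trapping, 0 of 10 other receptors and co-receptors, 0 of 10 other Smads, adaptors and partners and 0 of 10 genes of repression and turnover were called, with 3, 0, 0 and 1 of these at an unadjusted p below 0.05. At single doses of 6 h, *Junb* was called at 0.325 µM (log2 fold change −0.83, standard error 0.17, FDR = 0.0572) and *Timp1* at 1.5 µM (0.62, standard error 0.13, FDR = 0.0795), and 0 genes of the list at the other doses. The *Junb* call was lost without A3 (−0.62, FDR = 0.101), A5, A14 or A15 and the *Timp1* call without any 1 of 9 libraries, with estimates of 0.50 to 0.70 over all 15 fits that left out a library. Both were also lost when only the groups compared were fitted (FDR = 0.683 and 0.509), with estimates of −0.82 and 0.62. At 24 h, 0 of 74 genes passed over the doses by edgeR, against 0.107% of all genes, with 9 at an unadjusted p below 0.05.

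*Gdf15*, a distant ligand of the superfamily that signals appetite loss through a hindbrain receptor and is also known as a stress-induced gene, was at 25.6, 27.7 and 16.4 CPM in vehicle at 6 h and at 3.18 to 14.2 CPM in the 12 CBD libraries. All 12 lay below all vehicle libraries, as held for 0.724% of genes in this direction, and the log2 fold change was −1.38 (standard error 0.27, FDR = 0.0161). *Cdkn1a*, which encodes the cell cycle inhibitor p21 and is a target of both Smads and p53, was at 579 to 639 CPM in vehicle and 376 to 482 CPM with CBD (−0.48, standard error 0.10, FDR = 0.0169). *Junb*, a subunit of AP-1 and an early-response gene to many stimuli, was at 164 to 259 CPM in vehicle and 88.3 to 163 CPM with CBD (−0.67, standard error 0.13, FDR = 0.0161). *Ccn2*, a matricellular protein also under the control of YAP, was at 112 to 206 CPM in vehicle and 25.6 to 106 CPM with CBD (−0.87, standard error 0.21, FDR = 0.0699). In each of these 4 genes the 12 CBD libraries of 6 h lay below every vehicle library.

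*Timp1*, an inhibitor of metalloproteinases, went the other way, at 708 to 821 CPM in vehicle and 914 to 1355 CPM with CBD at 6 h (log2 fold change 0.53, standard error 0.11, FDR = 0.0187). The calls of *Gdf15* and *Cdkn1a* were lost without A2 (FDR = 0.132 and 0.121), that of *Timp1* without A1 (0.109) or A2 (0.115), and that of *Ccn2* with DESeq2 (0.262) and without any 1 of 7 libraries. Without A3, at 206 CPM of *Ccn2* the highest vehicle library, the estimate went from −0.87 to −0.54 (FDR = 0.279), and in the fits without 1 of the other 6 libraries it was −0.83 to −0.89. *Smad4*, the common partner of the receptor Smads, was at −0.04 (standard error 0.12, FDR = 0.954), the repressor *Ski* at −0.00 (standard error 0.11, FDR = 0.999) and the co-receptor *Tgfbr3* at −0.14 (standard error 0.19, FDR = 0.859) in the same comparison at 6 h.

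**Figure D5:**
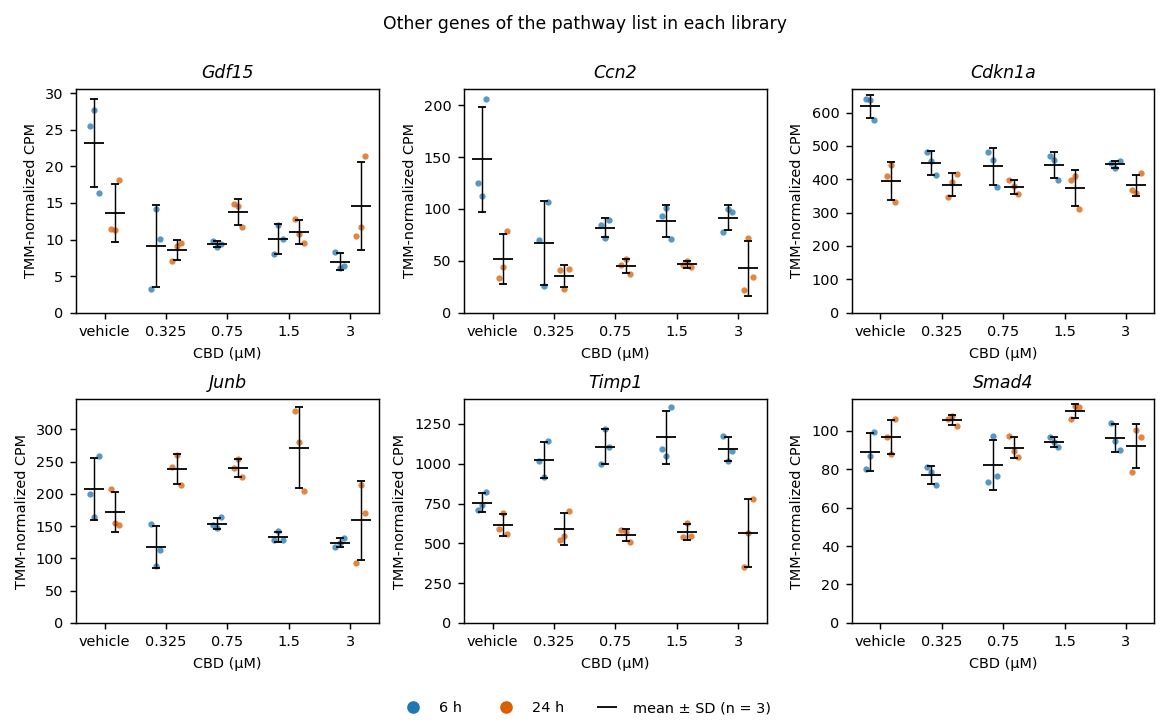
Level in every library of 5 genes of the pathway list that passed over the CBD doses at 6 h and of *Smad4*, which did not, in TMM-normalized CPM on axes from 0, with 6 h in blue and 24 h in orange and bars for the mean ± SD of 3. At 6 h all CBD libraries lie on 1 side of vehicle for the first 5 genes, and for *Smad4* the ranges overlap.

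The contrasts of dose at 24 h and of time were also read over the list, and the genes named for them were chosen after their values were seen. At 24 h, 3 of 74 genes passed for any difference among the doses (1.93% of all genes) and 2 for the slope (3.13% of all genes). The slope calls were *Furin*, which rose with dose, and *Id3*, which fell. That of *Furin* was lost without any 1 of 3 libraries and that of *Id3* without any 1 of 8. At 3 µM against the lower doses of 24 h, 7 of 74 genes were called, where 10.5% of all genes were. *Inhba*, a subunit of activin, was higher by 0.68 (standard error 0.15, FDR = 0.0115), *Furin*, a protease that cleaves TGF-beta precursors, by 0.59 (standard error 0.12, FDR = 0.00608) and *Fst*, which binds activin, by 0.71 (standard error 0.19, FDR = 0.0249). *Id3*, *Junb*, *Snai1* and *Postn* were lower, with log2 fold changes of −0.64, −0.64, −0.72 and −0.43. The call of each of these 7 genes was lost without A16, where the log2 fold changes were 0.30 for *Inhba*, 0.25 for *Fst*, 0.47 for *Furin*, −0.46 for *Id3*, −0.37 for *Junb*, −0.34 for *Snai1* and −0.36 for *Postn*. The calls were also lost in the fit with the percentage of reads beyond annotated genes as a term, at FDR of 0.124 to 0.545, but there the estimates stayed about as large or were larger, at 1.08 for *Inhba*, 1.31 for *Fst*, 0.56 for *Furin*, −0.75 for *Id3*, −1.01 for *Junb*, −1.02 for *Snai1* and −0.43 for *Postn*. That percentage did not overlap between 3 µM and the lower doses, so the fit cannot tell it and dose apart.

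In vehicle, 28 of 77 genes of the list differed between 24 h and 6 h, 13 higher and 15 lower, where 26.7% of all genes did. Targets accounted for 13 of 25, with log2 fold changes of −1.53 for *Ccn2* (standard error 0.32) and −0.65 for *Cdkn1a*, and of 1.36 for *Cdkn2b*, the gene of the cell cycle inhibitor p15, and 0.82 for the collagen gene *Col3a1*. The activin subunit *Inhba* was at −1.05 and the ligand *Bmp4* at 1.73, and both passed. In CBD-treated cells 53 of 77 differed, 23 higher and 30 lower, where 53.6% of all genes did, and *Ccn2*, *Cdkn1a*, *Inhba*, *Cdkn2b*, *Col3a1* and *Bmp4* moved in the direction they had in vehicle.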

How the data were processed

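RNA of mHypoA-2/12 cells was read in 30 libraries, 3 in each of 10 groups of dose and time, grouped by the labels. The deposited values are read counts per gene made by the authors, not normalized: reads were checked with FastQC 0.11.9, trimmed with Flexbar, aligned with STAR 2.7.5c to GRCm39 and counted with HTSeq 1.99.2 on Ensembl release 109, without a stated strand setting, and the submitters' processing notes also list DESeq2 3.16. The kit yields about 1 fragment per transcript at its 3′ end, so differences in the poly(A) site used can move a count. Lines of the count files that name no gene (17.7% to 22.2% of uniquely mapped reads per library lay outside genes) were left out of library sizes and tests.

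Symbols and GRCm38 positions came from GENCODE M21, which named 51948 of 56941 genes. Counts were tested in R 4.3.3 with edgeR 4.0.16 (filterByExpr, TMM, glmQLFit, glmQLFTest; two-sided), with the 15 libraries of a time in a fit (12012 genes at 6 h, 12118 at 24 h) and all 30 libraries (12790 genes) for contrasts of time, without covariates, at an FDR below 0.1. Scripts were tested on simulated counts. Contrasts were each dose and the mean of 4 doses against vehicle, any difference and slope among doses, 3 µM against the lower doses, 24 h against 6 h, and the difference of CBD changes between times. With 1839621 to 4420675 reads per library, 3 reads correspond to 0.679 to 1.63 CPM; such floors and the counting errors given cover counting only. Alternatives were DESeq2 1.42.0, its size-factor scaling in edgeR, no filter, at least 10 reads in every library, mitochondrial genes left out, the percentage of reads outside genes as a term, only the groups compared, all libraries in 1 fit, and each library left out.

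The 9 genes, the pathway list and the markers were chosen with earlier results of these data known. Named were all 9 genes, pathway genes past the threshold over the 4 doses or at a single dose against vehicle, and *Ccn2*, *Smad4*, *Ski* and *Tgfbr3* in any case. Another gene of that rule is not reported here. Genes of like pattern were to be named only for a gene of the 9 called against vehicle, and there was 0 such gene.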

Additional observations from a re-analysis of the deposited data

Results flagged for a closer look

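*Junb* was the only gene of the pathway list whose CBD change differed between the times by the test of that difference. The log2 change from vehicle over the 4 doses was greater at 24 h than at 6 h by 1.04 (standard error 0.22, FDR = 0.0644, edgeR's quasi-likelihood test). The levels at 6 h are given above, with all 12 CBD libraries below the 3 vehicle libraries. At 24 h the vehicle libraries lay between 152 and 208 CPM and those of the 3 lower doses between 205 and 329 CPM. The libraries of 3 µM were at 92.6, 171 and 214 CPM, so the higher level was not seen throughout the highest dose. Over the 4 doses the log2 fold change at 24 h was 0.37 (standard error 0.15, FDR = 0.692). The call was lost without A3, 1 of the vehicle libraries of 6 h (0.84, FDR = 0.275), and also without A4, A5, A11, A29 or A30. Which of these libraries the difference rests on was not tested further.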

How the results depend on the processing

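Counts of calls among the 9 genes kept within 1.5 times of those given above, or at 0, except in the cases that follow. At 0.325 µM and 6 h the count was 1 with DESeq2, with the percentage of reads outside genes as a term, and with all libraries in 1 fit, each time *Smad3*. Without a filter on low counts the count was 1 for any difference among doses and 1 for the slope at 24 h, and 2 for vehicle over time, and with at least 10 reads in every library it was 1 for the slope. With the percentage of reads outside genes as a term, 3 µM against the lower doses of 24 h gave 0, in a fit that cannot tell that percentage and dose apart. Leaving out 1 library gave 0 to 1 calls for any difference at 24 h and 0 to 2 for the slope (the highest without A17), 0 to 1 for 3 µM against the lower doses (0 without A16 or A18), and 1 to 5 for vehicle over time (1 without A2, 2 without A1). For the pathway list at 6 h the count was 12 without a filter, 11 with the percentage of reads outside genes as a term, and 3 to 6 with a library left out (3 without A2), and for vehicle over time 17 to 30 (17 without A28). The share of all genes called differs between fits and is not given for these, so the counts have no matching background. Fits without a filter test more genes, and fits without a library hold fewer samples. The cause of the other changes was not tested.

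Where an estimate changed sign, neither the value above nor the one of opposite sign passed the threshold. Over the doses at 6 h, *Ski* was at 0.0164 without a filter and 0.00198 with all libraries in 1 fit. Over the doses at 24 h with the percentage of reads outside genes as a term, *Tgfb3* was at 0.11, *Smad3* at 0.045, *Tgfbr3* at 0.077 and *Ccn2* at 0.55. In vehicle over time *Tgfbr1* was at 0.028 without a filter and 0.23 with that term. With 1 library left out, estimates at 6 h ran from −0.41 to 0.20 for *Tgfbr1*, −0.26 to 0.46 for *Tgfbr2*, −0.0932 to 0.0822 for *Smad7*, −0.44 to 0.17 for *Skil*, −0.25 to 0.092 for *Tgfbr3*, −0.10 to 0.0611 for *Smad4* and −0.0279 to 0.0228 for *Ski*. At 24 h they ran from −0.14 to 0.22 for *Tgfb3*, −0.0911 to 0.18 for *Smad7*, −0.16 to 0.19 for *Tgfbr3*, −0.0287 to 0.10 for *Smad4*, −0.0257 to 0.0295 for *Ski* and −0.56 to 0.13 for *Ccn2*. In vehicle over time they ran from −0.22 to 0.39 for *Tgfbr1* and −0.0821 to 0.17 for *Smad3*. No paired analysis was possible because library names run on from group to group and share no number. Depth limits *Tgfbr1* and *Tgfb1* most.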
